A study of Mus musculus with 4 samples.

Results

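The genes of hepatic de novo lipogenesis were examined in the livers of mice on a high-fat diet (HFD) with and without the RNA-editing enzyme ADAR2. The group holds 10 genes, chosen by their symbols as the gene of the transcription factor SREBP-1 (Srebf1), 8 genes for enzymes or a carrier of the pathway (Slc25a1, Acly, Acss2, Acaca, Acacb, Fasn, Me1 and Elovl6) and Thrsp, whose product acts on the pathway. All 10 were found among the 25655 genes of the deposited count table, and all 10 were among the 12967 genes with enough counts to be tested. HFD-WT mice were ADAR2+/+ and HFD-KO mice ADAR2−/−. The GluR-B R/R allele was present in both groups. It supplies the edited form of a glutamate receptor subunit and keeps mice without ADAR2 alive, and therefore neither group is a plain wild type. The male mice, on a B6129S background, received the HFD for 12 weeks from the age of 5 weeks, and poly(A) RNA of whole liver was sequenced in 2 libraries per genotype. The loss of ADAR2 was not limited to the liver. The study names more mice per group than there are libraries, but whether a library came from 1 mouse or from a pool, and whether these livers were taken fed or fasted, is not given in the sources used here. P-values therefore measure only the spread between these libraries, which may be partly technical.

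In the liver, carbohydrate carbon leaves the mitochondrion as citrate, which is split to acetyl-CoA in the cytosol, carboxylated to malonyl-CoA and built by fatty acid synthase into palmitate with NADPH as the reductant. SREBP-1c, one of the proteins made from Srebf1, drives transcription of nearly every enzyme of this route in response to insulin, while ChREBP (encoded by Mlxipl) does so in response to glucose. Both SREBP-1c and malonyl-CoA synthesis are inhibited by AMPK, the kinase that the study examined.

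The libraries held 28691330 and 26907857 counts in HFD-WT and 26540624 and 24480798 in HFD-KO. Levels are given as CPM, counts scaled to library sizes that were adjusted by the TMM method, and a log2 fold change is HFD-KO against HFD-WT. Adarb1, the gene of ADAR2, was at 15.7 and 19.8 CPM in HFD-WT and at 6.23 and 9.54 CPM in HFD-KO. Its log2 fold change was −1.17 ± 0.20 (SE), with an adjusted p of 0.159 by edgeR's quasi-likelihood test, and both HFD-KO libraries lay below both HFD-WT libraries with reads still present. The 2 HFD-KO libraries differed from each other more than the 2 HFD-WT libraries did, by a chi-square over genes of 34.1 per degree of freedom against 8.80. Markers of hepatocytes were high in every library, with summed levels of 68760 to 81800 CPM over 6 genes, and 0 of the 6 had an unadjusted p under 0.05. The 4 adipocyte markers summed to at most 0.266 CPM in any library, and Lep had no count.

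As a group, the lipogenesis genes had lower mean levels in HFD-KO. All 10 had a log2 fold change below 0, as did 48.4% of all genes tested, and their median was −0.15, against 0.01 for all genes. Thrsp, Elovl6, Fasn and Acaca were lower at an unadjusted p under 0.05, where 4.73% of all genes were. For 6 of the 10 both HFD-KO libraries lay below both HFD-WT libraries, which held for 20.3% of all genes. None of the 10 reached an adjusted p under 0.05 in edgeR with the filter on low counts, and 0.0771% of all genes did, while without the filter and with DESeq2 Thrsp alone did. With 2 libraries against 2, the smallest p that an exact permutation of the labels can give is 0.333. Together the 10 genes took 0.111% and 0.124% of all counts in HFD-WT and 0.102% and 0.0857% in HFD-KO. Bulk RNA cannot tell less RNA per cell from fewer of the cells that express these genes.

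**Figure D1:**
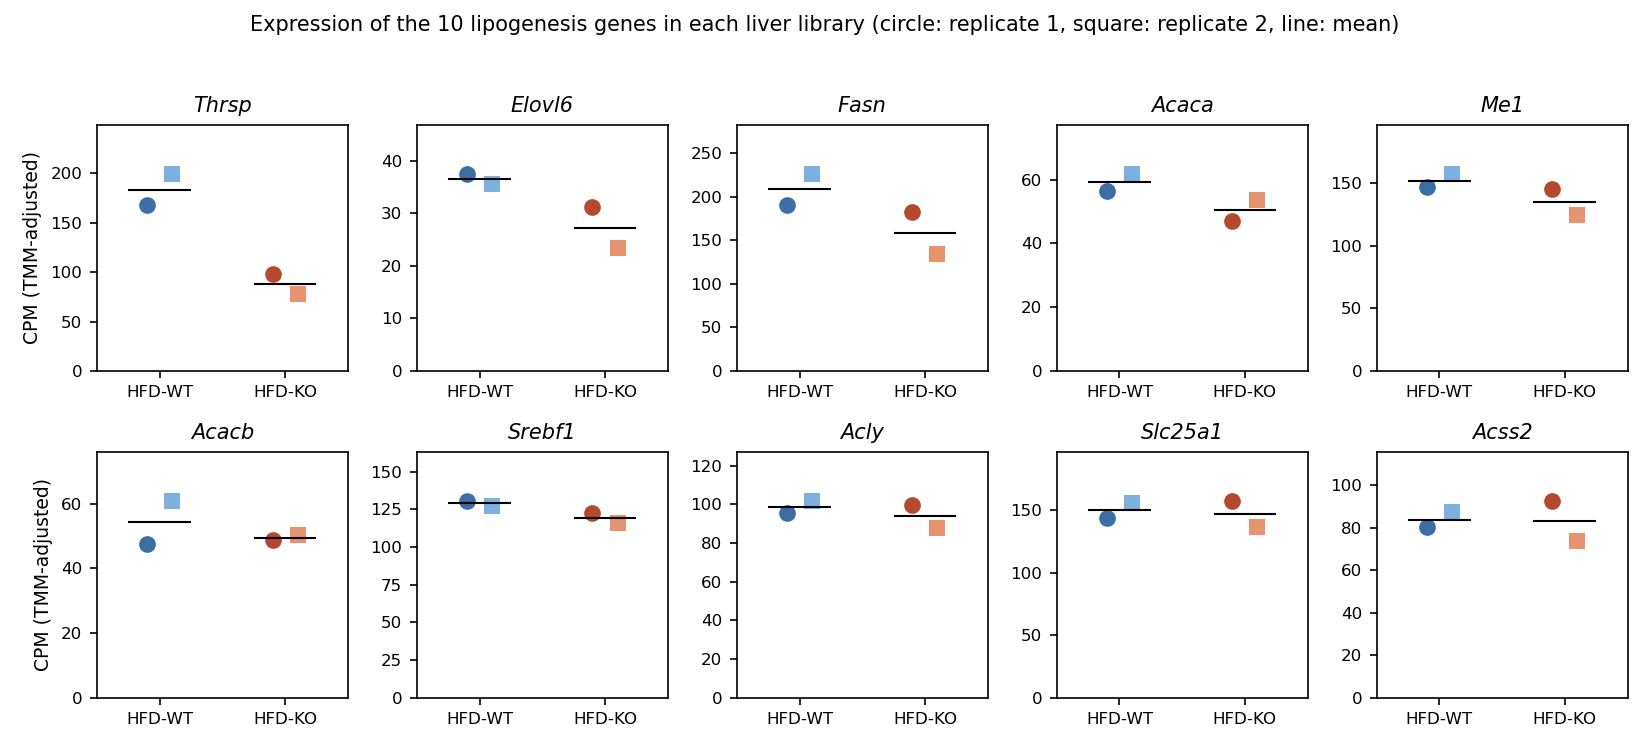
Level of each of the 10 genes in each library, in CPM with TMM-adjusted library sizes on axes that start at 0. Circles are replicate 1, squares are replicate 2 and lines are group means. Thrsp separated the genotypes most widely. In Acly, Slc25a1 and Acss2, HFD-KO 1 lay above HFD-WT 1 while HFD-KO 2 was the lowest library.

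Direction alone was less firm than the count of 10 shows. It was 10 without HFD-WT 1 and without HFD-KO 1, but 7 without HFD-WT 2 and 7 without HFD-KO 2. The genes also differed in size of change. Thrsp, fatty acid synthase and the elongase lay furthest from 0, and the genes that deliver acetyl-CoA lay closest to it.

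Srebf1 (ENSMUSG00000020538, GRCm39 chromosome 11, 60089915 to 60113407, minus strand) had 130 and 127 CPM in HFD-WT and 122 and 116 CPM in HFD-KO. The groups did not overlap, but the step between them was small. The log2 fold change was −0.11 ± 0.08 (SE; 95% interval −0.30 to 0.07; adjusted p = 0.713), which is a ratio of 0.925. Without any 1 library the value stayed between −0.07 and −0.15. Gene-level counts add up the transcripts of SREBP-1a and SREBP-1c, and they do not report the cleaved protein that enters the nucleus.

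The genes that supply cytosolic acetyl-CoA did not separate by genotype. Slc25a1, the mitochondrial citrate carrier, was at 144 and 156 CPM in HFD-WT and at 157 and 137 CPM in HFD-KO, with a log2 fold change of −0.03 ± 0.10 (SE; 95% interval −0.25 to 0.20; adjusted p = 0.957). For Acly, the ATP-citrate lyase that splits the exported citrate, the values were 95.3 and 102 CPM against 99.9 and 87.9 CPM, and the log2 fold change was −0.07 ± 0.09 (SE; 95% interval −0.29 to 0.15; adjusted p = 0.862). Acss2, which makes acetyl-CoA from acetate, had 80.1 and 87.1 CPM in HFD-WT against 92.4 and 73.7 CPM in HFD-KO (log2 fold change −0.01 ± 0.12, SE; 95% interval −0.29 to 0.27; adjusted p = 0.988). In all 3 the groups overlapped, and HFD-KO 1 was above HFD-WT 1 while HFD-KO 2 was the lowest library. Without HFD-KO 2 the log2 fold change turned to 0.07 for Slc25a1, 0.02 for Acly and 0.14 for Acss2. Without HFD-WT 2 it turned to 0.03 for Slc25a1 and 0.05 for Acss2.

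Acetyl-CoA carboxylase commits the carbon to fat, and its phosphorylation by AMPK leaves no trace in counts. Acaca encodes the cytosolic form ACC1 and was at 56.6 and 61.7 CPM in HFD-WT and at 47.0 and 53.7 CPM in HFD-KO. Both HFD-KO libraries lay below both HFD-WT libraries, with a log2 fold change of −0.23 ± 0.10 (SE; unadjusted p = 0.0472; adjusted p = 0.546). The value ran from −0.14 without HFD-KO 1 to −0.33 without HFD-KO 2. The unadjusted p was 0.0785 with DESeq2 and 0.0412 with limma-voom. Acacb encodes ACC2, the mitochondrial form whose malonyl-CoA restrains fatty acid oxidation, and had 47.7 and 60.8 CPM against 48.7 and 50.3 CPM. Here HFD-KO lay inside the HFD-WT range, the log2 fold change was −0.13 ± 0.12 (SE; adjusted p = 0.790), and without HFD-WT 2 it was 0.06. Per kilobase of exon, Acaca and Acacb transcripts were close to equal in every library, with Acaca at 0.865 to 1.06 times the level of Acacb.

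Fasn, the fatty acid synthase, had the highest mean CPM of the group, with 191 and 226 CPM in HFD-WT and 182 and 134 CPM in HFD-KO. HFD-KO 1 came within 10 CPM of HFD-WT 1, whereas HFD-KO 2 lay well below. The log2 fold change was −0.40 ± 0.15 (SE; unadjusted p = 0.0332; adjusted p = 0.507), a ratio of 0.759. It was −0.63 without HFD-KO 1 (adjusted p = 0.000105) and −0.19 without HFD-KO 2 (adjusted p = 0.503). Each of these fits rests on a single HFD-KO library, assumed to vary like the HFD-WT pair.

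Elovl6, which lengthens the palmitate made by Fasn to stearate, followed the same course at a lower level. It was at 37.5 and 35.5 CPM in HFD-WT and at 31.1 and 23.4 CPM in HFD-KO, so the groups did not overlap. Its log2 fold change was −0.42 ± 0.13 (SE; unadjusted p = 0.0153; adjusted p = 0.423), a ratio of 0.748. Without HFD-KO 1 it was −0.64 (adjusted p = 0.000287), and without HFD-KO 2 it was −0.23 (adjusted p = 0.421), with the same limit of a single HFD-KO library.

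Me1, the cytosolic malic enzyme that yields NADPH for the synthase, had 147 and 157 CPM in HFD-WT and 146 and 124 CPM in HFD-KO. HFD-KO 1 and HFD-WT 1 nearly coincided. The log2 fold change was −0.17 ± 0.10 (SE; 95% interval −0.40 to 0.06; adjusted p = 0.668), and it ran from −0.06 without HFD-KO 2 to −0.29 without HFD-KO 1.

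Thrsp encodes Spot 14, a small nuclear and cytosolic protein of lipogenic tissues that is induced by thyroid hormone and carbohydrate and promotes fatty acid synthesis. It had 168 and 199 CPM in HFD-WT and 98.5 and 78.3 CPM in HFD-KO, which gave means of 183 ± 22.3 and 88.4 ± 14.3 CPM (SD, n = 2 each). The lowest HFD-WT library stood well above the highest HFD-KO library, a gap no other gene of the group showed. The log2 fold change was −1.05 ± 0.13 (SE; 95% interval −1.36 to −0.74), a ratio of 0.482. Its unadjusted p was 7.54e-05, and its adjusted p of 0.0611 missed the threshold of 0.05. The value lay between −0.90 and −1.23 when any 1 library was left out, with an adjusted p of 0.118 without HFD-WT 1, 0.375 without HFD-WT 2, 1.21e-09 without HFD-KO 1 and 1.06e-06 without HFD-KO 2. The last 2 values rest on a single HFD-KO library each and take their spread from the HFD-WT pair alone, so they give no added support. DESeq2 gave an adjusted p of 6.11e-10, edgeR without a filter on low counts 0.000277 and limma-voom 0.0575, each with a log2 fold change of −1.06.

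**Figure D2:**
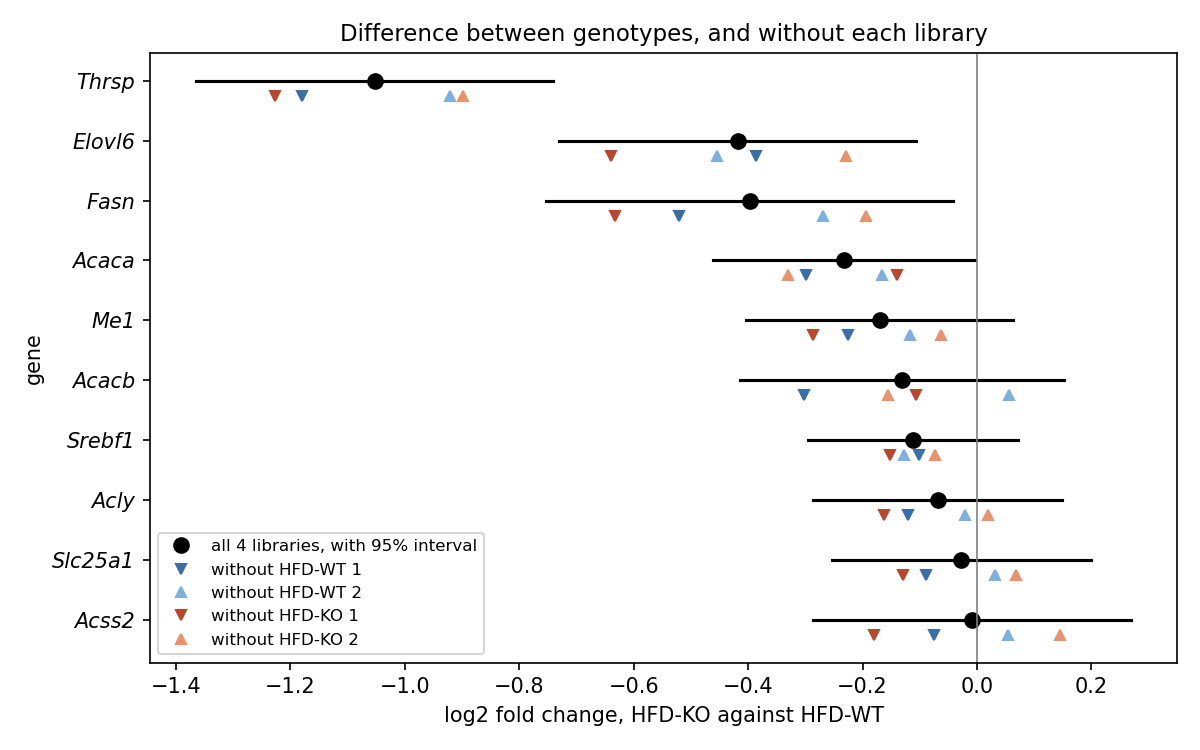
Log2 fold change between the genotypes for each gene (black circle, below 0 where HFD-KO was lower) with its 95% interval from edgeR (black line), and the same value without each of the 4 libraries (coloured triangles). The interval excluded 0 for Thrsp, Elovl6, Fasn and Acaca before adjustment for the 12967 genes tested, and the triangles fall on both sides of 0 for Acacb, Acly, Slc25a1 and Acss2.

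When divided by exon length, the order of the genes by level changed. Thrsp, with a short transcript of 1382 bases, had the highest level in HFD-WT at 121 and 144 CPM per kilobase, but HFD-KO had 71.3 and 56.7. Slc25a1 followed at 79.9 and 86.4 in HFD-WT and stood above Thrsp in both HFD-KO libraries, at 87.2 and 75.9 CPM per kilobase. Me1 came next with a mean of 38.9 CPM per kilobase in HFD-WT, then Srebf1 with 26.9. Acss2, Acly and Fasn, with means of 20.2, 19.7 and 18.1 CPM per kilobase, had overlapping HFD-WT ranges. So did Acacb, Acaca and Elovl6 at the bottom, with 5.53, 5.40 and 5.24. Fasn ranked 1 by CPM and 7 per kilobase, since its transcript is 11474 bases long.

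Promoter sequences are shown for the 3 genes with the lowest log2 fold changes and the 2 closest to 0, as all are textbook targets of the same regulators. RefSeq (GRCm38.p6) gave 13 promoters for the 10 genes, 3 of them for Srebf1 and 2 for Me1. The last bases before the start are given for Thrsp (chr7:97417551-97417650), Elovl6 (chr3:129532286-129532385) and Fasn (chr11:120824548-120824647), then for Acss2 (chr2:155517943-155518042) and Slc25a1 (chr16:17928220-17928349). Elovl6 and Acss2 are on the plus strand and the others on the minus strand. Each is written 5′ to 3′ along the gene, with the CCAAT box, the motif of NF-Y, in capitals (ATTGG where it lies on the other strand).
Thrsp: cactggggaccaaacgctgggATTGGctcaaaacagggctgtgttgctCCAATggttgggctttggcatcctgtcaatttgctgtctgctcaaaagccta
Elovl6: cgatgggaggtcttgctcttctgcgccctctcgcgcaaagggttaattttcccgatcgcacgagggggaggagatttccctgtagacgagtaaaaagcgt
Fasn: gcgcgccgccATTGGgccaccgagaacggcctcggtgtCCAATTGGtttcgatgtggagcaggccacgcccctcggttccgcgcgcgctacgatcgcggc
Acss2: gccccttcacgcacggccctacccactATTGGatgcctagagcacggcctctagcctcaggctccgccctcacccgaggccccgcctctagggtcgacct
Slc25a1: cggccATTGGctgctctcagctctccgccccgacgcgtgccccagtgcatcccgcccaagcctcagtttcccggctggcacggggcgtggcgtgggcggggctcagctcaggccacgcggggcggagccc
On both strands of the 250 bases before the start, CCAAT occurred 2 times in Thrsp and 3 times in Fasn, where a pair overlaps. At least 2 were found in 10.1% of all 32851 promoters, and at least 3 in 2.79%. Acss2, Slc25a1 and Acacb each had 1, and Acly, Acaca and Elovl6 had none. The promoters of Srebf1 and Me1 had 0 or 1 each. The GC box GGGCGG, a motif of Sp1, occurred 4 times each in Acss2, Slc25a1 and Acly, at least 3 times in 8.47% of all promoters, and not at all in Thrsp, Fasn, Elovl6, Acaca or Acacb, with 0 to 3 in the promoters of Srebf1 and Me1. The E-box CACGTG was present in Slc25a1 alone (6.02% of all promoters), and TCACNCCAC, one form of the sterol regulatory element, in none of the 13 (1.05% of all promoters). These are matches of letters in a short window, no binding was measured, and the genes shown were chosen after the expression values were seen. CCAAT did not follow the fold changes over the group, as Elovl6 and Acaca had none and Acss2 and Slc25a1 each had 1. The GC box was absent from Thrsp, Elovl6, Fasn and Acaca, which had the lowest log2 fold changes. It occurred 4 times each in Acly, Slc25a1 and Acss2, which were closest to 0. Acacb, in between, had no GC box, and Me1 and Srebf1 varied by promoter. Whether the GC box relates to the fold changes was not tested.

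The genes around the pathway were then examined by list, each described by its counts, since no list was tested as a set. In the supply of NADPH and acetyl-CoA, 9 of 12 genes had a log2 fold change below 0, against 48.4% of all genes. The median was −0.11 (−0.22 without HFD-KO 1 and −0.02 without HFD-KO 2). At an unadjusted p under 0.05, 4 of the 12 were lower, against 4.73% of all genes. Aacs, which makes acetoacetyl-CoA in the cytosol for lipid synthesis, was the furthest at 52.7 and 64.8 CPM against 31.1 and 36.4 CPM, a log2 fold change of −0.80 ± 0.13 (SE; adjusted p = 0.115). The pentose phosphate dehydrogenases Pgd and G6pdx had log2 fold changes of −0.35 and −0.51, with adjusted p values of 0.438 and 0.496. Both HFD-KO libraries were below both HFD-WT libraries for 5 of the 12, these 3 among them, against 20.3% of all genes. The genotypes overlapped for 7 of the 12, and these 3 were named for their small p. For the 17 tested genes of acyl chain finishing and esterification the median was −0.05 (−0.17 without HFD-KO 1 and 0.01 without HFD-KO 2), with 11 below 0 (7 without HFD-KO 2), 3 lower and 1 higher at an unadjusted p under 0.05. Among all genes 4.25% were higher at that threshold. Lpin1, a phosphatidate phosphatase, was at 162 and 334 CPM in HFD-WT and at 98.5 and 112 CPM in HFD-KO (log2 fold change −1.24, adjusted p = 0.268). Its HFD-WT libraries differed more from each other than the lower of them did from either HFD-KO library. Lpin2, of the same family, had −0.32 (adjusted p = 0.367), and the acyl-CoA synthetase Acsl3 had 0.53 (adjusted p = 0.233). Scd1, the stearoyl-CoA desaturase and a gene named here after its values were seen, had 8940 and 8231 CPM against 5494 and 7638 CPM (log2 fold change −0.39, adjusted p = 0.588).

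Of 20 genes for SREBP-1c processing and lipogenic regulators, 14 had a log2 fold change above 0, against 51.6% of all genes, with a median of 0.08. Mlxipl alone of the 20 was higher at an unadjusted p under 0.05 (0.0296), against 4.25% of all genes. For 6 of the 20 both HFD-KO libraries lay above both HFD-WT libraries, against 20.5% of all genes. Mlxipl, the gene of ChREBP, was at 225 and 211 CPM in HFD-WT and at 279 and 243 CPM in HFD-KO (log2 fold change 0.26, adjusted p = 0.493). Insig1, which holds SREBP in the endoplasmic reticulum, had a log2 fold change of 0.38 (adjusted p = 0.572), and Fbxw7, part of a ubiquitin ligase that degrades nuclear SREBP, had 0.30 (adjusted p = 0.561). Of 10 glucose-responsive genes 9 had a log2 fold change below 0 (7 without HFD-WT 2), against 48.4% of all genes, with a median of −0.11. The genotypes overlapped for 6 of the 10, and for 7672 of the 12967 genes tested. An unadjusted p under 0.05 was found for 2 of the 10, both lower, where 4.73% of all genes were. Pklr, the liver pyruvate kinase, had a log2 fold change of −0.49 (adjusted p = 0.396), and G6pc, the glucose-6-phosphatase, had 0.55 (adjusted p = 0.556).

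Cholesterol synthesis, which SREBP-2 drives, had its own pattern. Of 19 genes 18 had a log2 fold change above 0, against 51.6% of all genes, with a median of 0.27. However, the 2 HFD-KO libraries lay on opposite sides of HFD-WT. The summed level was 1782 and 1998 CPM in HFD-WT, 2389 CPM in HFD-KO 1 and 1556 CPM in HFD-KO 2. Without HFD-KO 1 the median was −0.22 and 17 of 19 genes were below 0, and without HFD-WT 1 there were 4. Stard4, a sterol transporter, was the 1 gene of the list whose groups did not overlap. Both HFD-KO libraries lay above both HFD-WT libraries for Stard4, as for 20.5% of all genes. It was at 31.9 and 27.7 CPM against 47.9 and 36.0 CPM (log2 fold change 0.50, adjusted p = 0.383). Mvd had a log2 fold change of 0.42 (adjusted p = 0.630) and Sc5d 0.25 (adjusted p = 0.684). The ratio of Srebf1 to Srebf2 per kilobase was 2.87 and 2.41 in HFD-WT, 1.85 in HFD-KO 1 and 2.67 in HFD-KO 2.

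**Figure D3:**
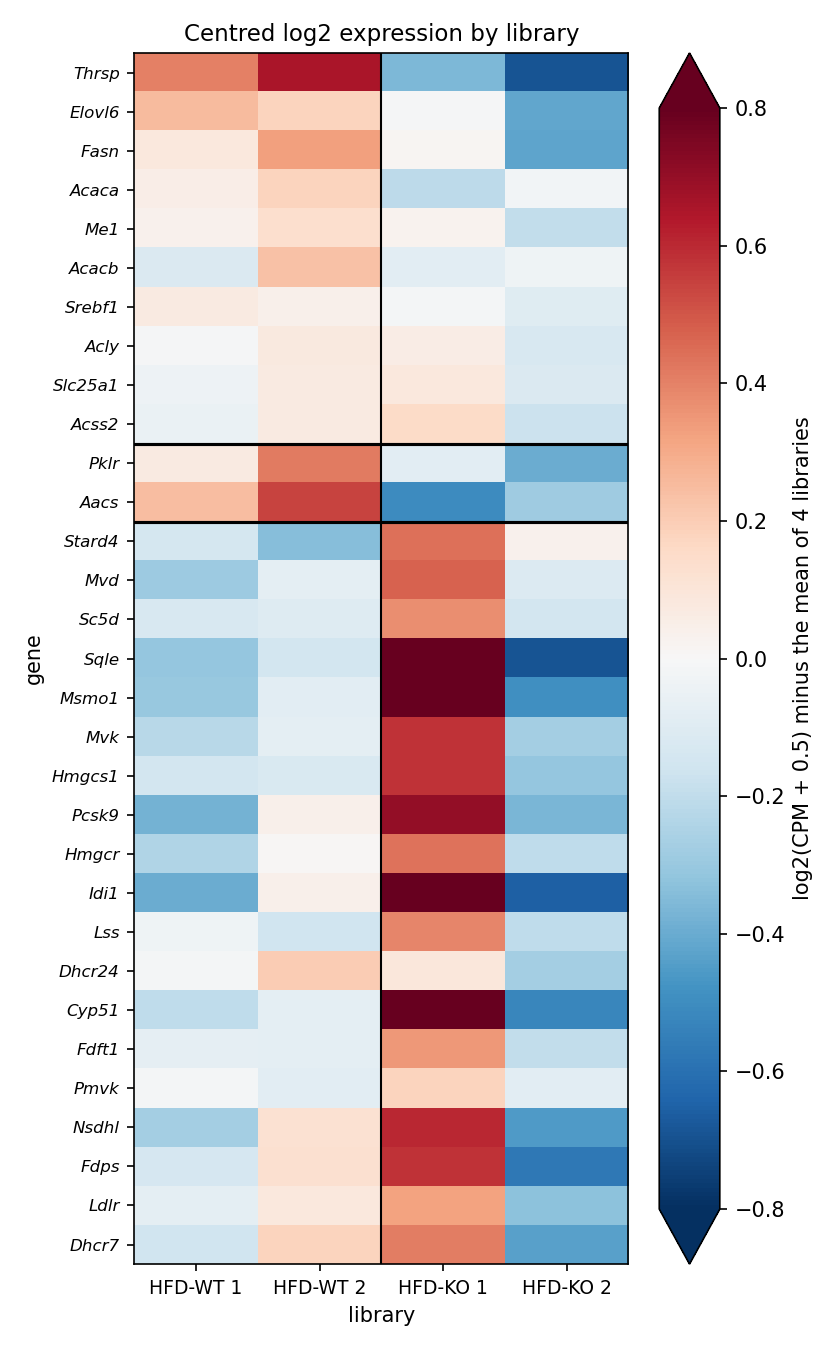
Log2(CPM + 0.5) of each gene minus its mean over the 4 libraries, red above and blue below the mean, with the colour limited to 0.8 in either direction. The blocks are the 10 lipogenesis genes, the genes Pklr and Aacs, and the 19 genes of SREBP-2 and cholesterol synthesis, which are high in HFD-KO 1 and mostly low in HFD-KO 2.

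LXR, a sterol receptor, induces Srebf1. Of 7 other LXR target genes 5 had a log2 fold change below 0 (3 without HFD-WT 1), against 48.4% of all genes. Their median was −0.09. At an unadjusted p under 0.05, 2 of the 7 were lower and 0 higher, against 4.73% and 4.25% of all genes. Mylip had −0.34 (adjusted p = 0.416), Abcg1 −0.38 (adjusted p = 0.478) and Abca1 0.20 (adjusted p = 0.745). The transcripts of AMPK subunits, its activator Stk11 and Sirt1 had a median of 0.01, with 3 of 8 below 0 (5 without HFD-WT 2 and 6 without HFD-KO 2). Stk11 was at 89.6 and 86.7 CPM against 97.7 and 104 CPM (log2 fold change 0.20, adjusted p = 0.536), Sirt1 had 0.24 (adjusted p = 0.634) and Prkag2 −0.14 (adjusted p = 0.665). Counts of these genes do not measure the activity of the kinase.

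**Figure D4:**
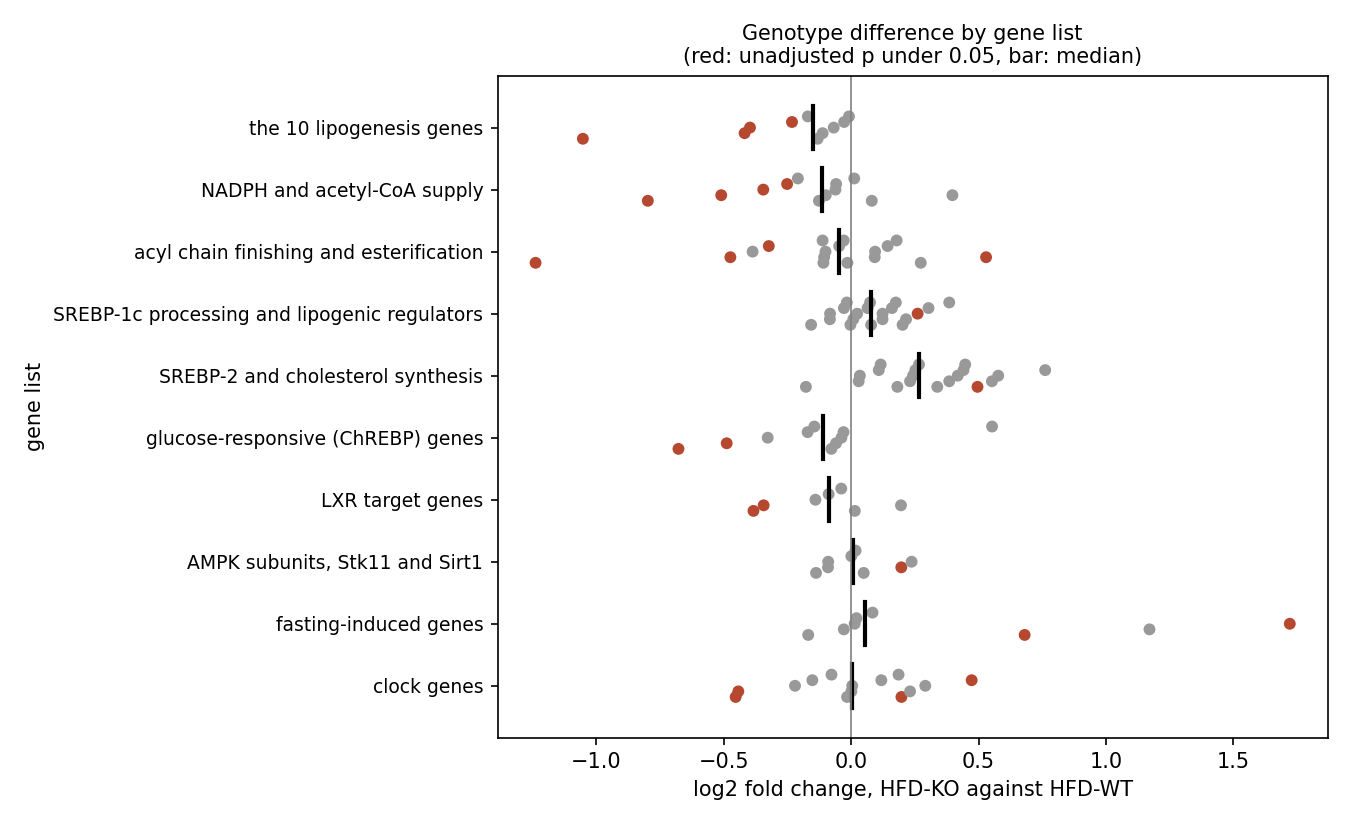
Log2 fold change of every tested gene in the lipogenesis group and in the related lists, with red for an unadjusted p under 0.05, grey otherwise and a black bar at the median. The medians were −0.15 for the lipogenesis genes and 0.27 for cholesterol synthesis, and none of the genes drawn had an adjusted p under 0.05.

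Feeding and time of day also set these genes, and their markers differed between libraries. Of 8 fasting-induced genes 6 had a log2 fold change above 0, against 51.6% of all genes, with a median of 0.05. At an unadjusted p under 0.05, 2 of the 8 were higher and 0 lower, against 4.25% and 4.73% of all genes. The 2 below 0 became 4 without HFD-WT 1 or without HFD-KO 2, and 1 without HFD-WT 2. Igfbp1, which insulin represses, was at 48.3 and 68.8 CPM in HFD-WT, 93.5 CPM in HFD-KO 1 and 293 CPM in HFD-KO 2 (adjusted p = 0.358). Pdk4 was at 14.4 and 13.8 CPM, then 10.9 and 53.0 CPM (adjusted p = 0.626), so HFD-KO 2 stood apart in both and was also the library with the smallest share of lipogenesis counts. Irs2 had a log2 fold change of 0.68 ± 0.11 (SE; adjusted p = 0.115), at 14.3 and 15.2 CPM against 21.8 and 25.4 CPM. Among 14 clock genes the median was 0.00, with 6 below 0, 2 lower and 2 higher at an unadjusted p under 0.05, against 4.73% and 4.25% of all genes. Nr1d1 had a log2 fold change of 0.47 (adjusted p = 0.257), Ciart −0.44 (adjusted p = 0.358) and Cry1 −0.45 (adjusted p = 0.467). The part of feeding state or collection time in the lipogenesis values was not tested.

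Marker levels of other cell types also differed between the genotypes. All 7 Kupffer cell markers had both HFD-KO libraries below both HFD-WT libraries, against 20.3% of all genes. Of the 7, 6 were lower at an unadjusted p under 0.05, against 4.73% of all genes. The summed level of the 7 was 340 and 425 CPM in HFD-WT and 268 and 254 CPM in HFD-KO. For 5 stellate cell markers the sum was 276 and 311 CPM against 243 and 181 CPM, with 4 below 0. Most of the stellate sum was Dcn, at 179 and 202 CPM against 165 and 119 CPM. Col1a1, Reln and Dcn had log2 fold changes of −0.87, −0.53 and −0.43, but Lrat had −0.09 and Des 0.008. For 5 cholangiocyte markers the sum was 71.5 and 90.4 CPM against 59.4 and 50.02 CPM, with 4 below 0. Most of the cholangiocyte sum was Spp1, at 64.3 and 83.9 CPM against 53.8 and 42.8 CPM. For Krt19, Krt7, Epcam and Sox9 the genotypes overlapped. The 5 sinusoidal endothelial markers summed to 183 and 202 CPM against 177 and 194 CPM, with 2 below 0. Among all genes 48.4% were below 0. All 3 erythroid markers were above HFD-WT in both HFD-KO libraries, against 20.5% of all genes, with sums of 463 and 379 CPM against 503 and 726 CPM. B and plasma cell markers summed to 13.8 CPM in HFD-KO 1 and to 2.36 to 2.93 CPM elsewhere, and pancreas markers to 8.96 to 11.6 CPM, nearly all Cela1. None of these markers had an adjusted p under 0.05, and their part in the lipogenesis values was not tested.

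The mean centred log2 profile of the 10 genes was 0.07 and 0.20 in HFD-WT and −0.03 and −0.23 in HFD-KO. Among 7610 other genes with a mean of at least 10 CPM, the 5 whose profile lay closest were Hopx, Mta3, Hexa, Ces2e and Cdc42se1, at a root mean square difference of 0.0088 to 0.0168 log2 units over 4 libraries. Hopx, a homeodomain-only protein, was at 54.0 and 60.0 CPM in HFD-WT and at 50.8 and 44.4 CPM in HFD-KO. With 4 libraries such a likeness is a description and carries no test.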

How the data were processed

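Liver RNA of 2 HFD-WT and 2 HFD-KO libraries was analysed, grouped and numbered as the labels state. According to the study's methods, the authors extracted RNA with TRIzol, prepared directional libraries with an MGIEasy kit, sequenced paired ends on a DNBSEQ-G400RS, aligned them with software of MGI Tech, and used Partek Genomics Suite and GENCODE annotation to estimate expression. The methods name mm10, the submitters' processing notes list GRCm39 and mm10, and the deposited positions are those of GRCm39. Tool versions and the use of strand in counting are not given in the sources used here.

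The deposited counts are whole numbers that the authors did not normalize, and they are the only values tested. The deposited RPKM values, counts scaled by exon length and library size, served only to derive exon lengths. The deposited TPM values and the deposited CPM values, a score on an adjusted library size, were not used, and CPM was recomputed from the counts.

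Counts were fitted in R 4.3.3 with edgeR 4.0.16 (filterByExpr, 12967 genes, TMM, quasi-likelihood test, two-sided, no pairing), with Benjamini-Hochberg adjustment over all genes tested. The common biological coefficient of variation was 0.102. SE is the log2 fold change divided by the root of F. The procedure was tested on simulated data. A count of 3 corresponds to 0.104 to 0.126 CPM, which covers counting error only. Alternatives were other size factors, no filter, DESeq2 1.42.0, limma-voom from limma 3.58.1, a replicate block and leaving out each library.

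The members and gene lists were chosen with earlier results of these data known. Genes named beside the 10 and Adarb1 are the 3 with the smallest p in each pathway list and the 5 with the most similar profile, on log2(CPM + 0.5). A result that this rule would name is not reported here. Cell type markers were summed. Promoter sequences are RefSeq's, on GRCm38.p6, and were not placed on the GRCm39 positions. Plots used matplotlib 3.10.9.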

Additional observations from a re-analysis of the deposited data

How the results depend on the processing

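The direction of Thrsp, Elovl6, Fasn, Acaca, Me1 and Srebf1 held under all 10 alternatives run. With a library left out, log2 fold changes ran from −0.163 to 0.0197 for Acly, −0.302 to 0.0556 for Acacb, −0.181 to 0.144 for Acss2 and −0.130 to 0.0677 for Slc25a1. Values above 0 came without HFD-KO 2 for Acly, Acss2 and Slc25a1 and without HFD-WT 2 for Acacb, Acss2 (0.0546) and Slc25a1 (0.0317), all with adjusted p values of 0.678 or more. The lists without each library, chosen after seeing the data, turned sign by more than the replicate spread for cholesterol synthesis alone, whose median ran from −0.222 without HFD-KO 1 to 0.680 without HFD-KO 2. The median of the 10 genes ran from −0.26 to −0.11 when 1 library was left out. The number of them at an adjusted p under 0.05 was 1 without a filter, 1 with DESeq2 and 0 to 3 with a library left out (3 without HFD-KO 1, namely Thrsp, Elovl6 and Fasn, and 1, Thrsp, without HFD-KO 2). The number lower at an unadjusted p under 0.05 was 2 to 4 with a library left out. Over all genes, 3 lower and 7 higher genes at an adjusted p under 0.05 became 81 and 81 without a filter, 61 and 56 with DESeq2, 2 and 4 with library size alone, and 0 to 329 and 0 to 376 with a library left out (0 and 0 without HFD-WT 2, 329 and 376 without HFD-KO 1, 185 and 226 without HFD-KO 2). The cause was not tested. Each genotype had replicates numbered 1 and 2, but no source describes a pairing, and deviations of same-numbered libraries correlated at −0.104 over 7620 genes. With the replicate block 8 genes were lower and 12 higher, the median of the 10 was −0.15, the adjusted p of Thrsp was 0.0967 and 0 of the 10 passed. Levels ranked without exon length moved 6 of the 10 genes. The 10 genes had 559 to 6209 counts per library, and 2 libraries per genotype limit the precision.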
